A study of Mus musculus with 4 samples.

Results

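Apoe, the gene of apolipoprotein E, was described together with 9 other genes of macrophage lipid handling (Apoc2, Abca1, Abcg1, Nr1h3, Trem2, Gpnmb, Cd36, Fabp5 and Plin2) in single cells from mouse melanomas treated with celecoxib. All 10 symbols were found among the 12584 genes measured. The 10 genes were chosen by name with earlier results of these libraries in view. The low Apoe level of the celecoxib library was known when they were selected, so every value of celecoxib against control is given as a description. The question was whether the other lipid genes were lower where Apoe was lower.

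The data are 4 single-cell libraries, 1 per group, of CD45+ cells sorted from RTT tumours of the YUMM1.7 line, a Braf-mutant mouse melanoma that lacks Cdkn2a, carries ovalbumin and was kept in dabrafenib. The hosts were Rag2-/- mice, which have no T or B cells of their own, and each received OT-1 CD8+ T cells by adoptive transfer (ACT) on day 7. Tumours were taken 72 h later, on day 10, and 3 were pooled for each library. CTRL tumours carried an mCherry vector, and COX2i tumours carried the same vector and were treated with celecoxib, an inhibitor of the prostaglandin-producing enzyme COX2. COX2i + 5-AZA tumours, again with mCherry, received celecoxib and the DNA methylation inhibitor 5-azacytidine. IRF3/7 tumours were made from cancer cells with lentiviral Irf3 and Irf7 under the SFFV promoter, so the macrophages were not themselves modified, and the labels name no drug for them or for CTRL. The IRF3/7 line was sorted in bulk and is not a single clone. With 1 pooled library a group there is no replicate and no test between groups. The 95% intervals below cover counting error only, and a difference between conditions cannot be told apart from a difference between pools.

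Macrophages take up lipoproteins and dying cells and must store or export the cholesterol they acquire. Oxysterols made from that cholesterol activate the nuclear receptors LXRα, the product of Nr1h3, and LXRβ, which induce the transporters Abca1 and Abcg1 and, in macrophages, the apolipoproteins Apoe and Apoc2 that accept the exported lipid. When sterols are scarce, SREBP2 induces the synthesis pathway instead. Trem2, a receptor for lipids and apolipoproteins, marks lipid-laden macrophages together with Gpnmb, Cd36, Fabp5 and Plin2.

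The libraries held 6329 to 10032 cells and 26356819 to 78722763 UMIs (unique molecular identifiers, each counting 1 captured molecule). The submitters' annotation divides the cells into 17 classes, of which 6 are macrophages, and the classes were clustered on this kind of expression data, so that levels by class are a description. The pooled macrophages numbered 7475 in CTRL, 6820 in COX2i, 4117 in COX2i + 5-AZA and 439 in IRF3/7, where 4596 cells were monocytes. All 8 macrophage markers examined were present in the macrophages of each library, at a summed level of 19130 to 19874 CPM (UMIs of a gene per 1e6 UMIs of the cells summed). The summed level of 4 monocyte markers in the same cells was 789 CPM in CTRL, 710 in COX2i, 735 in COX2i + 5-AZA and 1742 in IRF3/7. Median depth per macrophage was 6303, 7986, 9446 and 4683 UMIs in the same order. In 29.1% of the cells the droplet barcode was found in more than 1 library, as multiplexed loading allows, and no complete cell barcode was shared.

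Apoe was lower in the macrophages of the celecoxib libraries than in those of either library without the drug. Because capture depends on the probes, a level is compared between cells for the same gene and not between genes. The Apoe level was 28714 CPM in CTRL, 18509 in IRF3/7, 8820 in COX2i and 9336 in COX2i + 5-AZA. In CTRL, 2.87% of all macrophage UMIs were Apoe, against 0.882% in COX2i. The log2 ratio of COX2i to CTRL was -1.70 (95% interval -1.71 to -1.70), and 1.09% of the genes tested in macrophages lay at or below it. Fewer cells with much Apoe and less Apoe per cell give the same sum, so the distribution over cells was also examined.

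After each cell was thinned to 2000 UMIs, the median macrophage held 41 Apoe UMIs in CTRL, 28 in IRF3/7, 14 in COX2i and 13 in COX2i + 5-AZA. In TAM_C1q, the class of tumour-associated macrophages (TAM) rich in complement C1q, the median was 76 in CTRL, 23 in COX2i and 25 in COX2i + 5-AZA. An Apoe UMI was still found in 99.9%, 99.1% and 99.6% of these thinned cells, so the difference lay in the amount per cell and not in the share of cells with the transcript. The middle of the COX2i distribution, from 14 to 34 UMIs between the quartiles, lay below the lower quartile of 45 in CTRL. In TAM_Spp1, macrophages named for osteopontin, the median was 13 in CTRL, 4 in COX2i and 1 in COX2i + 5-AZA. In proliferating TAM_cycling it was 41, 14 and 12. The COX2i distribution was therefore lower than that of CTRL in each of the 3 large macrophage classes. NK cells, which should not make Apoe, had an Apoe UMI in 22.6% of thinned cells in COX2i and 30.9% in COX2i + 5-AZA, below the pooled macrophage shares of 92.1% and 86.5%. In TAM_Spp1 the shares were 94.2% in CTRL, 77.5% in COX2i and 58.7% in COX2i + 5-AZA. The last of these stands closest to background, since the level there was 2406 CPM against 1208 CPM in NK cells of the same library, and no size is read from its median of 1.

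**Figure D1:**
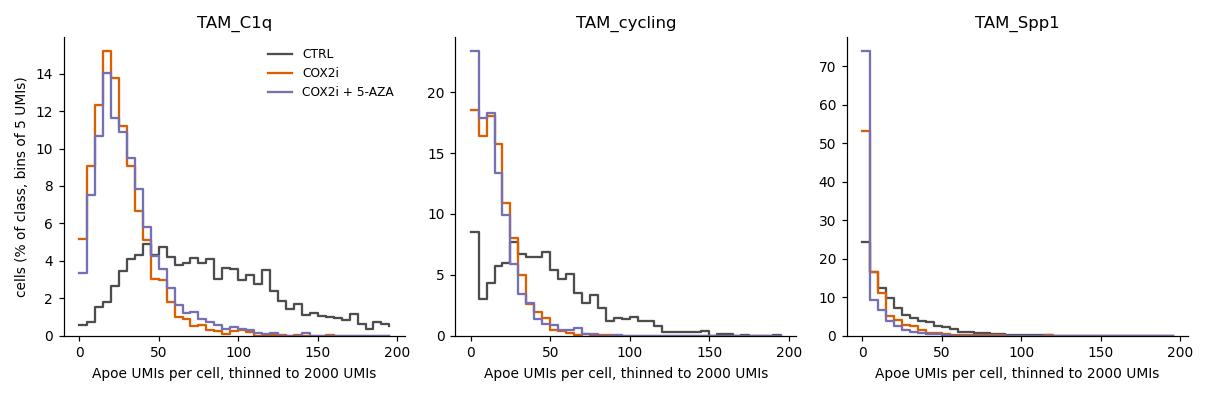
Histograms of Apoe UMIs per cell (x axis, bins of 5 UMIs, each cell thinned to 2000 UMIs) as a percentage of the cells of a class (y axis) in TAM_C1q, TAM_cycling and TAM_Spp1, with 1 line for each library that held these classes. The few cells with 200 or more UMIs are not drawn. The COX2i and COX2i + 5-AZA lines lie to the left of CTRL in each panel, with TAM_C1q medians of 23 and 25 against 76.

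C1q transcripts, another macrophage product, did not move with Apoe in the pooled macrophages. C1qa, C1qb and C1qc together stood at 13532 CPM in CTRL, 13178 in COX2i, 14611 in COX2i + 5-AZA and 16452 in IRF3/7. The number of Apoe UMIs per C1q UMI was 2.12 in CTRL, 0.669 in COX2i and 0.639 in COX2i + 5-AZA. Within TAM_C1q it was 2.39, 0.823 and 0.883, and within TAM_Spp1 it was 2.36, 0.761 and 0.412. Ctsk_Macro, a small class with the osteoclast gene Ctsk, had the highest ratio in both libraries, 5.47 in CTRL and 2.64 in COX2i.

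Macrophages held 97.2% of the Apoe UMIs of CTRL, 96.6% of those of COX2i and 89.1% of those of COX2i + 5-AZA, whereas in IRF3/7 they held 32.4% and monocytes 65.2%. Within CTRL the Apoe level descended from TAM_C1q at 41133 CPM to the inflammatory monocytes Infl_Mono at 35414, the 73 cells of Macro at 29156, neutrophils at 24383, TAM_cycling at 23765, Ctsk_Macro at 22821 and TAM_Spp1 at 10264. Neighbours in this order differed beyond counting error, except neutrophils and TAM_cycling, whose intervals overlapped. The labels of 2 of these classes need care in CTRL. Its 93 Infl_Mono cells and 65 neutrophils carried C1q at 12949 and 8768 CPM, and their Apoe to C1q ratios of 2.73 and 2.78 were near that of the macrophages. The Myofibrobl class had an Apoe level of 1663 CPM in CTRL and a ratio of 2.11, and in COX2i the ratio was 0.726, so its Apoe stood to C1q nearly as in the macrophages of the same library. In IRF3/7 and COX2i + 5-AZA the Myofibrobl ratios were 2.09 and 0.309, against 1.13 and 0.639 in macrophages. How much Apoe in these classes came from free RNA or from joined cells was not tested. For this reason no change is read from the monocytes of CTRL.

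Apoc2 encodes a small apolipoprotein that activates lipoprotein lipase, and its gene lies 18168 bases from Apoe on mouse chromosome 7. In GRCm38 Apoe (ENSMUSG00000002985) occupies chr7:19696109-19699188 and Apoc2 (ENSMUSG00000002992) chr7:19671579-19677941, both on the minus strand. In macrophages Apoc2 stood at 243 CPM in CTRL, 107 in IRF3/7, 106 in COX2i and 126 in COX2i + 5-AZA. The COX2i to CTRL log2 ratio was -1.19 (95% interval -1.24 to -1.15). Apoc2 was lower in TAM_C1q, TAM_Spp1, TAM_cycling and Ctsk_Macro alike, with ratios of -0.99, -1.18, -1.06 and -1.54. Apoc2 thus had the direction of Apoe in the 4 classes, where the ratios of Apoe were -1.68, -1.24, -1.59 and -1.74.

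The exporters themselves were nearer to their control levels. Abca1, which loads cholesterol onto lipid-poor apolipoproteins, stood at 505 CPM in CTRL, 372 in COX2i, 278 in COX2i + 5-AZA and 91.8 in IRF3/7. Its COX2i ratio was -0.44 (95% interval -0.47 to -0.41), below the 1.5-fold change (0.58 on the log2 scale) that is used as the mark of a difference here. The ratios within TAM_C1q, TAM_Spp1 and TAM_cycling were -0.31, -0.27 and -0.38, and that within Ctsk_Macro was -0.65, past the mark. Abcg1, which passes cholesterol to mature high-density lipoprotein, went the other way and stood at 50.3 CPM in CTRL, 61.5 in COX2i, 77.8 in COX2i + 5-AZA and 382 in IRF3/7. Its COX2i ratio was 0.29 (95% interval 0.22 to 0.36), and it was 0.20 in TAM_C1q, 0.12 in TAM_cycling, 0.74 in TAM_Spp1 and 0.77 in Ctsk_Macro. The level of Abcg1 was thus not lower where Apoe was lower.

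Nr1h3 was sparse, at 18.6 CPM in CTRL and 9.85 in COX2i, a log2 ratio of -0.91 (95% interval -1.06 to -0.77). The ratio lay between -0.83 and -0.67 in each of the 4 macrophage classes compared. Nr1h2, which encodes LXRβ, had a ratio of 0.05, and Rxra, which encodes an obligate partner of both receptors, was lower at -0.64. These 2 were named for their roles after their values were seen.

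Among the genes of lipid uptake and storage, Gpnmb, a lysosomal and membrane glycoprotein, had the lowest ratio of the 10 in the pooled macrophages, though not within TAM_C1q, TAM_Spp1 or Ctsk_Macro, nor with the class mix of CTRL, where it was -1.42. Its macrophage level was 76.8 CPM in CTRL, 43.2 in IRF3/7, 20.7 in COX2i and 32.3 in COX2i + 5-AZA, and the COX2i ratio was -1.89 (95% interval -1.99 to -1.80). The ratio was -1.59 in TAM_C1q, -2.03 in TAM_cycling, -1.28 in TAM_Spp1 and -0.65 in Ctsk_Macro. Gpnmb was not particular to macrophages: the Myofibrobl class held 48.7% of its UMIs in CTRL and 67.6% in COX2i, and the levels there were 418 and 230 CPM. The Myofibrobl cells carried 5 fibroblast and pericyte markers at 9463 CPM in CTRL and 18179 in COX2i. The 2 melanoma markers in the table, Pmel and S100b, were near 0 there, at 0.415 and 0.427 CPM together. The other 5 of the 7 listed, Mlana, Dct, Tyr, Tyrp1 and Sox10, were not among the genes measured. Whether this class held tumour cells was not tested.

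Plin2, the coat protein of lipid droplets, stood at 620 CPM in CTRL, 834 in IRF3/7, 227 in COX2i and 464 in COX2i + 5-AZA. The COX2i ratio was -1.45 (95% interval -1.48 to -1.42), and it was -1.36, -1.24 and -1.43 in TAM_C1q, TAM_Spp1 and TAM_cycling but -0.55, within 1.5-fold, in Ctsk_Macro. Fabp5, a cytosolic fatty acid carrier, stood at 548 CPM in CTRL, 384 in IRF3/7, 240 in COX2i and 794 in COX2i + 5-AZA. Its COX2i ratio was -1.19 (95% interval -1.22 to -1.16). Plin2 and Fabp5 were lowest of the 4 libraries in COX2i, and unlike Apoe they were not low in COX2i + 5-AZA to the same degree.

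Cd36, a scavenger receptor for oxidised lipoproteins and fatty acids, was the gene whose ratio varied most between classes. It stood at 71.4 CPM in CTRL macrophages, 27.0 in IRF3/7, 40.4 in COX2i and 35.5 in COX2i + 5-AZA. In TAM_Spp1 the level was 158 CPM in CTRL, 59.7 in COX2i and 17.1 in COX2i + 5-AZA. The COX2i ratio was -1.40 in TAM_Spp1 and -0.66 in TAM_C1q, but -0.30 in TAM_cycling and 0.18 in Ctsk_Macro, whose interval spanned 0. Trem2 was nearer to its control level, at 159 CPM in CTRL, 124 in COX2i, 94.9 in COX2i + 5-AZA and 45.7 in IRF3/7. Its COX2i ratio was -0.35 (95% interval -0.40 to -0.31), and it ranged from -0.42 to -0.17 over the 4 classes.

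**Figure D2:**
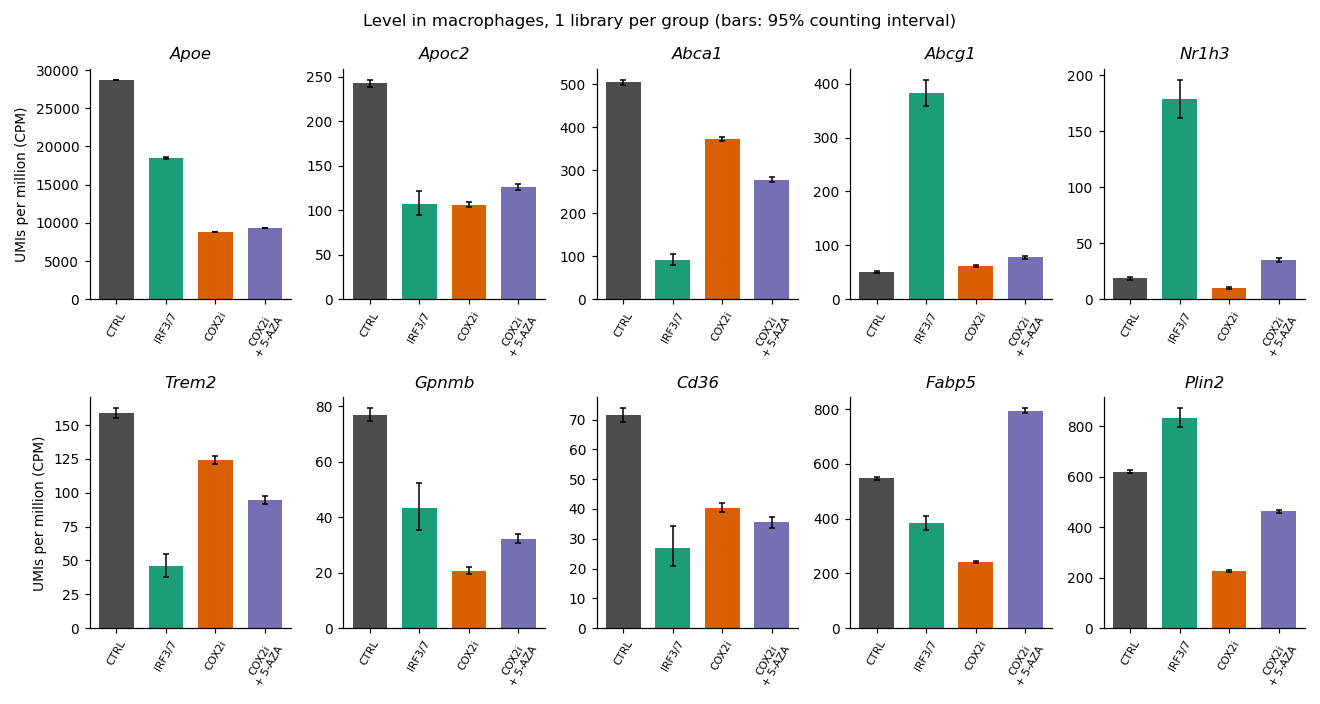
Level of each of the 10 genes in macrophages (y axis, CPM, a separate scale for each gene) in the 4 libraries, with 95% counting intervals as error bars. Apoe is lowest in the celecoxib libraries and Apoc2 is low in these and in IRF3/7, whereas Fabp5 and Plin2 are lowest in COX2i alone, and Abcg1 and Nr1h3 are highest in IRF3/7.

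Counted together in macrophages, 7 of the 10 genes were at least 1.5-fold lower in COX2i than in CTRL (Gpnmb, Apoe, Plin2, Apoc2, Fabp5, Nr1h3 and Cd36) and none was that much higher. All 10 passed the minimum of 50 UMIs in the 2 libraries together. Of all genes that passed, 9.55% were lower by this measure and 6.60% higher, and the median ratio was -1.05 for the 10 genes and 0.02 for all genes. In TAM_C1q 7 were lower, against 8.15% of all genes lower and 4.67% higher. In TAM_Spp1 7 were lower and Abcg1 was higher, against 5.91% lower and 4.14% higher. In TAM_cycling 6 were lower, against 5.81% lower and 3.57% higher, with Cd36 within 1.5-fold. These counts carry no test, since the genes were chosen with this comparison in view. The nearest gene past the 1.5-fold mark was Cd36 at -0.82, and the nearest short of it was Abca1 at -0.44.

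**Figure D3:**
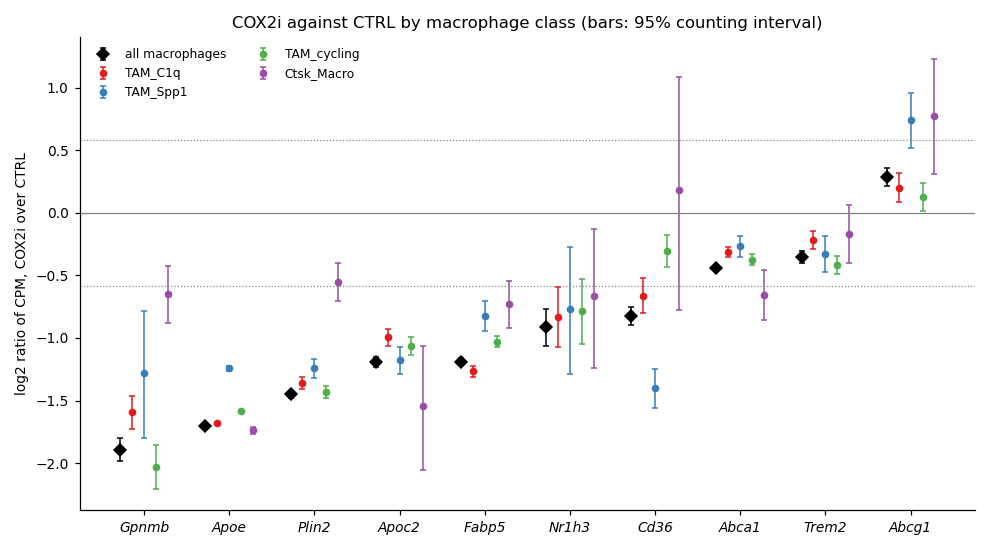
Log2 ratio of CPM, COX2i over CTRL, for the 10 genes in all macrophages (diamonds) and in 4 macrophage classes (circles), with 95% counting intervals. Dotted lines mark 1.5-fold. Apoe, Apoc2, Fabp5, Nr1h3 and Gpnmb lie below the lower line in each class shown. Abca1 and Trem2 lie within 1.5-fold in TAM_C1q, TAM_Spp1 and TAM_cycling, and Abcg1 lies above 0.

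The promoters of the genes are shown because several of them are known targets of LXR and of related receptors that bind repeats of AGGTCA as partners of RXR, spaced by 4 bases (DR4, the LXR element) or by 1 base (DR1, the PPAR element). The 250 bases before the start were read from RefSeq for GRCm38.p6, where 8 of the 10 genes were matched (11 promoters). Both strands were searched. Capitals mark a DR1 with at most 2 mismatches in Apoc2, Cd36 and Plin2, and in Abca1 the letters CACGTG and a DR4 with 3 mismatches. Apoe has none. All 5 genes lie on the minus strand, the windows are chr7:19699189-19699438 (Apoe), chr7:19677942-19678191 (Apoc2), chr4:53159896-53160145 (Abca1), chr5:17835897-17836146 (Cd36) and chr4:86670060-86670309 (Plin2), and each is printed 5′ to 3′ along the gene:
Apoe: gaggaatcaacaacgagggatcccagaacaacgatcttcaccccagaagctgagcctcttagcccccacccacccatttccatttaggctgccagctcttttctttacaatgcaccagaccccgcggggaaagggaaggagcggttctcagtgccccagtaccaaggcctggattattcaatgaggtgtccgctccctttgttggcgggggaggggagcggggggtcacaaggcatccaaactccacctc
Apoc2: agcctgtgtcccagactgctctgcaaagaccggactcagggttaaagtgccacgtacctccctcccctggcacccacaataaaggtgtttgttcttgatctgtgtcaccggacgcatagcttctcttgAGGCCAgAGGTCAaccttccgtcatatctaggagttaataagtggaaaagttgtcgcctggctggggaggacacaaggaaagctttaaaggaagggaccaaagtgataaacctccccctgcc
Abca1: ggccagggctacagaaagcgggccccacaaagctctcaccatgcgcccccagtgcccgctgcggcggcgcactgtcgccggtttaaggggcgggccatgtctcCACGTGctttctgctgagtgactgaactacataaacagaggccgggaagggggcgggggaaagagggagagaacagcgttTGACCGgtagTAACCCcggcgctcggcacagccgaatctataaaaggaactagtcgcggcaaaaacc
Cd36: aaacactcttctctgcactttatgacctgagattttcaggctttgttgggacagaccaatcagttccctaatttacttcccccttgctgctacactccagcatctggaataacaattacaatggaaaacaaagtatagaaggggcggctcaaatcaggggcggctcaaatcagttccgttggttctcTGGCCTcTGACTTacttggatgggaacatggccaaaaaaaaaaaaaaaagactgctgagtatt
Plin2: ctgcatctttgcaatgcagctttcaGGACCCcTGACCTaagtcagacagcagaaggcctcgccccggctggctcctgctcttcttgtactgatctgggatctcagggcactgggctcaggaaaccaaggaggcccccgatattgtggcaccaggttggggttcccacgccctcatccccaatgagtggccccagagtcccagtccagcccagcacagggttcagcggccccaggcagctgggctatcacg

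A DR1 with at most 2 mismatches was found in 3 of the 8 genes, Apoc2, Cd36 and Plin2, and in 3.72% of all 27018 genes. It began 122 bases before the start in Apoc2, 63 in Cd36 and 225 in Plin2, and its repeats are AGGCCA and AGGTCA, with 1 mismatch, in Apoc2. A DR4 with at most 2 mismatches was found in none of the 8 and in 2.96% of genes. With 3 mismatches allowed, a limit loosened after the sequence was seen, Abca1 had 1 match 67 bases before its start, and 20.9% of genes held a match in the window. The letters CACGTG occurred 147 bases before the start of Abca1 and in 6.86% of genes, and CATGTG, searched as a MiTF motif, in none of the 8 and in 13.85% of genes. A match is a description of letters and not of binding.

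The 10 genes did not differ alike between celecoxib with 5-azacytidine and celecoxib alone. Relative to COX2i, 4 of the 10 genes were at least 1.5-fold higher in the macrophages of COX2i + 5-AZA and none was that much lower, against 7.53% of all genes higher and 12% lower. Within classes, Apoe, at -0.85, and Cd36, at -1.81, were that much lower in TAM_Spp1, and Abca1, at -0.79, in TAM_cycling. The median of all genes was -0.12, so values relative to that median are larger by the same amount. The 4 genes were Nr1h3 at 1.82, Fabp5 at 1.73, Plin2 at 1.03 and Gpnmb at 0.64. The call of Gpnmb was lost under 4 alternatives, down to 0.36 with cells picked by their C1q UMIs, and also with a 2-fold mark. Fabp5 was higher by 1.67, 1.64 and 1.68 in TAM_C1q, TAM_Spp1 and TAM_cycling, and Plin2 by 1.05, 0.86 and 0.87. Nr1h3 was higher in TAM_C1q and TAM_cycling, at 1.47 and 1.90, but in TAM_Spp1 the ratio was 0.31 with an interval from -0.32 to 0.94.

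Apoe was not among them. Its ratio of COX2i + 5-AZA to COX2i was 0.08 (95% interval 0.08 to 0.09) in macrophages, and 0.19 in TAM_C1q, -0.08 in TAM_cycling and -0.85 in TAM_Spp1, the class closest to background. Its sign was not stable, since it was -0.41 with monocytes and macrophages summed and -0.26 with cells picked by their C1q UMIs in place of the class labels. The ratios of Apoc2 and Abcg1 were 0.25 and 0.34, and those of Cd36, Trem2 and Abca1 were -0.19, -0.39 and -0.42, all within 1.5-fold in the pooled macrophages. In TAM_Spp1 the ratio of Cd36 was -1.81 and that of Gpnmb 1.83, larger than their pooled values in the same directions. Apoe and Plin2, both low under celecoxib alone, thus stood apart in COX2i + 5-AZA.

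Against CTRL, which both comparisons share, COX2i + 5-AZA had 6 genes at least 1.5-fold lower and 2 higher, where 14.3% of all genes were lower and 7.01% higher. Within classes the counts were 3 lower and 1 higher in TAM_C1q, 4 and 2 in TAM_Spp1 and 5 and 2 in TAM_cycling. The shares of all genes within these classes are not given for this comparison, so these class counts are not read against a background. The lower genes were Apoe at -1.62 (95% interval -1.63 to -1.62), Gpnmb at -1.25, Cd36 at -1.01, Apoc2 at -0.94, Abca1 at -0.86 and Trem2 at -0.74. Nr1h3, at 0.90, and Abcg1, at 0.63, were higher. The sign was not the same in every class for 3 of these genes, since Gpnmb was at 0.55 in TAM_Spp1, Cd36 at 1.89 in the small class Macro and Nr1h3 at -0.45 in TAM_Spp1, with an interval that spanned 0. Others kept their sign but were past the mark in some classes only, Trem2 in 2 of 4, Apoc2 and Abca1 in 3 of 4 and Abcg1 in 1 of 4, TAM_Spp1, at 1.18. In TAM_C1q, Trem2 was at -0.55, Apoc2 at -0.54 and Abca1 at -0.57, all short of it. Apoe was lower in each of the 4 macrophage classes compared. Fabp5, at 0.54, and Plin2, at -0.42, were within 1.5-fold of CTRL in the pooled macrophages. Fabp5 was past the mark in 3 of 4 macrophage classes, which ranged from 0.40 to 0.81, and at 0.63 in thinned cells, and Abcg1 was short of it, at 0.43, with a fixed class mix. Apoe and Apoc2 were low in both treated libraries, and Apoc2 was as low in IRF3/7, at 107 CPM.

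**Figure D4:**
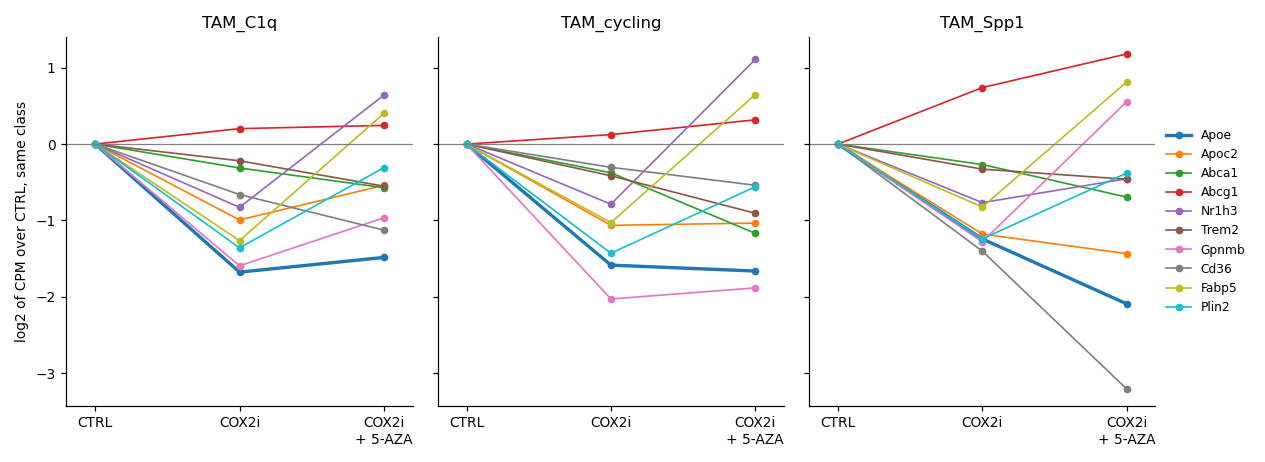
Log2 of the CPM of each gene over its CTRL level in the same class (y axis) in CTRL, COX2i and COX2i + 5-AZA (x axis), for TAM_C1q, TAM_cycling and TAM_Spp1. Apoe (thick line) stays low with 5-azacytidine, at -1.49, -1.66 and -2.09, whereas Fabp5 ends above 0 in each class.

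In IRF3/7 the macrophages were few and of another kind, since 385 of the 439 were TAM_H2Ab1, a class named for an antigen presentation gene that had 19 cells in CTRL. The comparison with CTRL macrophages is therefore also one between classes. Of the 10 genes, 6 were at least 1.5-fold lower and 2 higher, against 28.2% of all genes lower and 10.9% higher, with a median over all genes of -0.21. The 6 were Abca1 at -2.46, Trem2 at -1.80, Cd36 at -1.40, Apoc2 at -1.18, Gpnmb at -0.83 and Apoe at -0.63. The call was lost for Cd36 with mean CPM per cell (-0.33), for Apoc2 with cells picked by C1q UMIs (-0.38) or with monocytes included (-0.01), and for Gpnmb with cells picked by C1q UMIs (-0.44). Plin2, at 0.43, passed the mark at 1.02 with monocytes included, and Fabp5, at -0.51, did so at -0.72 with mean CPM per cell. The Apoe call was lost with size factors (-0.42), and its ratio moved to -1.43 with cells picked by C1q UMIs, of which 19.4% were labelled macrophage in IRF3/7 and 94.4% in CTRL, and to -1.93 with monocytes included.

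The higher genes in IRF3/7 were Nr1h3, at 178 CPM against 18.6 and a ratio of 3.26, and Abcg1, at 382 against 50.3 and a ratio of 2.92. With monocytes included these ratios fell to 1.71 and 1.99, the lowest of the alternatives run. Both genes were also high in the TAM_H2Ab1 cells of COX2i + 5-AZA. These 419 cells had 83.3 CPM of Nr1h3 and 140 CPM of Abcg1, against 34.2 and 68.3 in TAM_C1q of the same library. In IRF3/7 itself TAM_H2Ab1 had 189 CPM of Nr1h3 and 426 of Abcg1. Nr1h3 and Abcg1 were thus higher in this class than in TAM_C1q in COX2i + 5-AZA, where both classes had enough cells, and higher in the TAM_H2Ab1 cells of IRF3/7 than in those of COX2i + 5-AZA. Apoe in TAM_H2Ab1 was 19214 CPM in IRF3/7 and 8623 in COX2i + 5-AZA. Pparg, a fatty acid sensor picked out after its value was seen, stood at 87.3 CPM in IRF3/7 macrophages and 3.54 in CTRL.

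Beyond macrophages, the 10 genes kept different places. Fabp5 was highest in DC3, at 1246 CPM in the 66 such cells of IRF3/7 and 2962 in the 87 of COX2i + 5-AZA, where Apoe was 197 and 507 CPM and Trem2 and Cd36 were at 0 in IRF3/7. Plin2 reached 1340 CPM in the 4335 Infl_Mono cells of IRF3/7, above every macrophage level. In Monocyte_1, Cd36 was 99.4 CPM in COX2i and 43.3 in COX2i + 5-AZA, while Gpnmb was 168 CPM in IRF3/7 and 7.78 in COX2i. Conventional dendritic cells of type cDC2 had little of most of the genes, with Apoe at 686 CPM in CTRL and 217 in COX2i, and Cd36 at 2.15 and 10.1.

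Over 40 pairs of class and library with at least 50 cells, the genes whose log2 level was most like that of Apoe, among 8122 genes, included Ms4a7 (Pearson r of 0.951), Selenop (0.924), Lgmn (0.908) and Ms4a14 (0.905). Of the 10 described, Trem2 followed at 0.868, Abca1 at 0.852 and Apoc2 at 0.839, then Plin2 at 0.657, Nr1h3 at 0.565 and Fabp5 at 0.517, with Gpnmb, Cd36 and Abcg1 between 0.388 and 0.281. The pairs share libraries and depth, and the classes were clustered from expression, so the correlations are a description with no p. The order over these pairs, which include both celecoxib libraries, was not the order of the COX2i to CTRL ratios. Trem2 and Abca1 were near Apoe over the pairs and had COX2i ratios of -0.35 and -0.44. Gpnmb and Plin2 were less like Apoe over the pairs and had ratios of -1.89 and -1.45. Ms4a7, a membrane protein of macrophages, was 1161 CPM in CTRL and 732 in COX2i, and Selenop, a secreted selenium carrier, 2427 and 1554. Between single cells of 1 class the rank correlation with Apoe ranged from -0.145 to 0.315 over the other 9 genes, too weak in sparse counts to read.

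Other genes of lipid handling were taken from 7 lists, counted here without the 10 genes. Of 18 further genes of reverse cholesterol transport and LXR or RXR targets, 3 were at least 1.5-fold lower in COX2i and 3 higher, with a median of -0.14. The LXR target Mylip, a ubiquitin ligase, was at -0.83, and Srebf1, another LXR target, at 0.48, both picked out after their values were seen. Of 16 lipid droplet genes 3 were lower and 1 higher, and of 14 genes of uptake and fatty acid binding 4 were lower and 2 higher. Of 20 further markers of lipid-associated macrophages 5 were lower and 2 higher, with a median of -0.31, and of 13 lysosomal genes near Gpnmb in the MiTF/TFE programme 3 were lower and none higher, with a median of -0.32. Of 10 nuclear receptors and partners, Rxra alone was lower. These counts stand beside the 9.55% of all genes that were lower and the 6.60% that were higher. They were not alike in the classes: of 15 droplet genes none was lower in TAM_C1q and 1 in TAM_cycling, and in TAM_Spp1 the medians of the lipid-associated and lysosomal lists were -0.03 and -0.07.

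The cholesterol synthesis genes, which SREBP2 induces, went the other way. Of 19 measured, 12 were at least 1.5-fold higher in COX2i macrophages and none was that much lower, with a median ratio of 0.90, where 6.60% of all genes were higher and 9.55% lower. The counts of higher genes were 14 in TAM_C1q, 12 in TAM_Spp1 and 15 in TAM_cycling, with medians of 0.90, 0.87 and 0.73, beside 4.67%, 4.14% and 3.57% of all genes. Fdps, which makes farnesyl diphosphate, stood at 47.5 CPM in CTRL and 134 in COX2i, and Sqle, the squalene epoxidase, at 23.8 and 63.7. With 5-azacytidine added, none of the 19 was 1.5-fold different from COX2i (7.53% of all genes higher and 12% lower), and 15 were higher than in CTRL (7.01% of all genes). In IRF3/7 11 of the 19 were lower than in CTRL and none was higher, where 28.2% of all genes were lower and the median of all genes was -0.21.

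Among the list genes of at least 10 CPM, the 4 with the lowest ratios in COX2i were Atp6v0d2, Slc27a1, Cst7 and Ctsd. Slc27a1, a fatty acid transport protein, stood at 262 CPM in CTRL and 124 in COX2i, and Ctsd, the lysosomal protease cathepsin D, at 1276 and 697. Cst7 had a ratio of -1.06 in the pooled macrophages, and of -0.58 in TAM_C1q, just short of the mark, -0.66 in TAM_Spp1 and -1.24 in TAM_cycling. Atp6v0d2, a proton pump subunit of osteoclasts, was 76.4 and 25.3 CPM in macrophages but 8.78 and 3.64 in TAM_C1q, and the Ctsk_Macro cells numbered 380 and 157. The 4 with the highest were Fdps, Scd2, Sqle and Lpl. Lpl, the lipoprotein lipase that Apoc2 activates, had a ratio of 1.36 in macrophages and of 2.67 in TAM_C1q, where Apoc2 was at -0.99. Apoc1, a neighbour of Apoe that was picked out after its value was seen, was sparse at 2.00 CPM in CTRL and 0.316 in COX2i.

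Between the celecoxib libraries, the same rule named Hilpda, Tfec, Dgat2 and Itgax as higher with 5-azacytidine and, among others, Spp1, Scd2 and Atp6v0d2 as lower. Hilpda, a lipid droplet protein that inhibits lipid breakdown, was higher by 1.69, and Dgat2, which makes triglyceride, was higher by 1.33. Atp6v0d2, at -0.94 in macrophages, had a ratio of 1.04 in TAM_C1q.

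**Figure D5:**
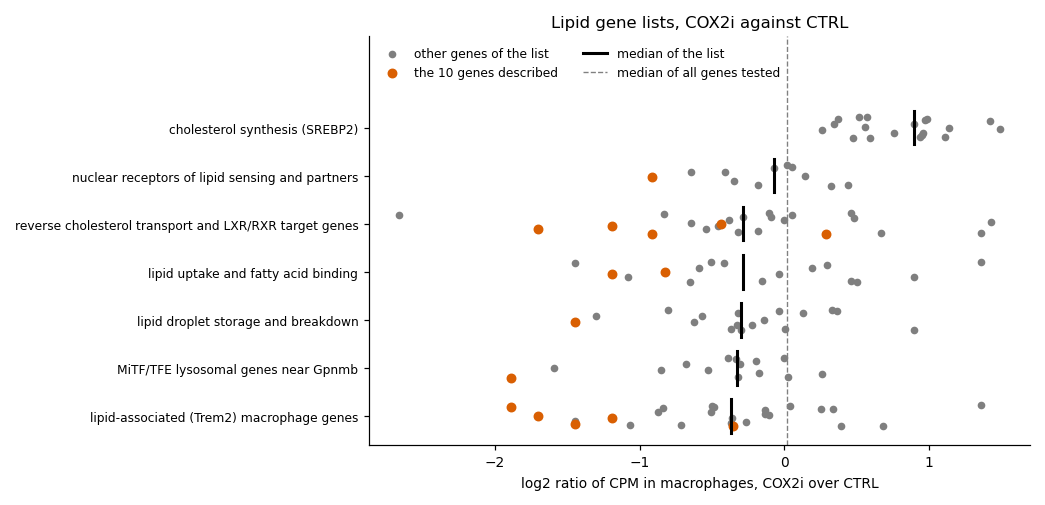
Log2 ratio of CPM in macrophages, COX2i over CTRL (x axis), for the genes of 7 lipid lists (rows). Grey points are other genes of a list, orange points are the 10 genes described, black bars are list medians and the dashed line is the median of all genes. The 10 genes, other than Abcg1, lie left of 0, and the cholesterol synthesis genes all lie right of it.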

How the data were processed

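The deposited file held raw UMI counts of 12584 genes in 34447 cells of 4 libraries, with the class and library of each cell. Per the labels and the study's methods, the authors sorted live CD45+ cells, fixed them for 22 h, hybridised the 10x Flex probe set (mm10), pooled the samples and counted UMIs with Cell Ranger 7.1.0. The classes came from their clustering of integrated data. Probes of 1 gene can differ in capture, and reads outside probes are not seen. Doublet removal is not stated in the sources used here and none was run.

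The counts were summed per class or compartment and library (classes of at least 50 cells) and divided by the summed UMIs to give CPM, in Python 3.11.15 with scipy 1.17.1. Ratios have exact conditional 95% intervals and CPM exact Poisson ones, both for counting error only. Genes with fewer than 50 UMIs over the compared pair were left out, and 1.5-fold was the size marked. Cells were thinned to 2000 UMIs for values per cell, leaving out 207, 32, 119 and 81 shallower macrophages of CTRL, IRF3/7, COX2i and COX2i + 5-AZA. Interval coverage was checked on artificial counts drawn from the libraries' own totals.

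The 10 genes and the lists were chosen with earlier results of these data known. Genes outside the 10 were named by a rule, the 4 largest ratios in each direction among list genes that passed this minimum and reached 10 CPM in the higher library, except where the text says otherwise, and the 5 genes most like Apoe by Pearson r of log2(CPM + 1). List genes not analysed here include Plin4, Cidec, Marco, Clec7a, Ppara and Ppargc1a, and the values of some genes that the rule selects are not reported here. Alternatives included size factors, totals without the 50 most abundant genes, cells with more than 2000 genes, mean CPM per cell, a fixed class mix, a gate of 2 C1q UMIs, thinning, monocytes added, a 2-fold mark and, chosen after the data were seen, leaving out droplet barcodes found in more than 1 library.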

Additional observations from a re-analysis of the deposited data

How the results depend on the processing

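The Apoe ratio of COX2i to CTRL in macrophages (-1.70) kept its sign and size under every alternative run: -1.72 with size factors, -1.75 without the 50 most abundant genes, -1.74 with cells of more than 2000 genes or with monocytes added, -1.64 with mean CPM per cell or thinned cells, -1.62 with the class mix of CTRL, -1.82 with the C1q gate and -1.69 without droplet barcodes found in more than 1 library. All 10 genes kept the sign of this comparison over the 9 alternatives to the macrophage levels. The ratio of COX2i + 5-AZA to COX2i (0.08) reversed to -0.26 with the C1q gate and to -0.41 with monocytes added. It was 0.20 with size factors, 0.076 with cells of more than 2000 genes, 0.062 with mean CPM per cell, 0.0040 with a fixed class mix, 0.052 with thinned cells and 0.050 without those droplets. Of the 10 genes, 1 was then 1.5-fold lower with the C1q gate and 2 with monocytes added, against none otherwise, and 3 in place of 4 were 1.5-fold higher with the C1q gate, monocytes, a fixed class mix, without those droplets or with a 2-fold mark. The cause was not tested. Of the cells passing the C1q gate, 54.6% carried a macrophage label in COX2i + 5-AZA and 89.9% in COX2i. Against CTRL, COX2i + 5-AZA (-1.62) had -1.55 with size factors, -1.66 without the 50 most abundant genes, -1.67 with more than 2000 genes, -1.58 with mean CPM per cell, -1.57 with a fixed class mix, -2.08 with the C1q gate, -1.59 thinned, -2.14 with monocytes and -1.64 without those droplets. Here 1 gene in place of 2 was 1.5-fold higher with the fixed class mix, and a 2-fold mark left 3 lower in place of 6 and 0 higher. The share of all genes past the mark is not given under these alternatives, so such counts are not read against a background. IRF3/7 against CTRL (-0.63) had -0.42 with size factors, short of 1.5-fold, -0.60 with mean CPM per cell or thinned cells, -1.43 with the C1q gate, -1.93 with monocytes and -0.70 without those droplets, and the class mix gave no value because no macrophage class had 50 cells in both. With no minimum of UMIs, 12.1% of all genes were 1.5-fold lower and 7.75% higher in COX2i. Of the 5 genes most like Apoe, 3 remained with classes of at least 200 cells.

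No paired analysis was possible because each group had 1 library. Depth limits most the sparse genes such as Nr1h3, with 593 macrophage UMIs in COX2i, and the 439 macrophages of IRF3/7. The pools cannot separate the treatments from the tumours that made them up.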

Other observations

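The 10 genes were also followed into the cells outside the comparisons of the report. In NK cells, Apoe was 573 CPM in the 568 cells of IRF3/7, 247 in the 50 of COX2i and 1208 in the 437 of COX2i + 5-AZA. In the Myofibrobl class Apoe was 1663 CPM in CTRL, 174 in IRF3/7, 776 in COX2i and 233 in COX2i + 5-AZA. Abca1 in the same class was 49.2, 40.6, 76.5 and 39.1 CPM in that order. The cDC2 level of Abcg1 was 63.6 CPM in CTRL, 162 in IRF3/7, 64.7 in COX2i and 99.9 in COX2i + 5-AZA, and that of Plin2 was 173, 438, 74.9 and 208. Plin2 was thus also lowest of the 4 libraries in COX2i in these dendritic cells. Fabp5 in cDC2 was 47.4, 63.3, 42.7 and 135 CPM.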
